A study of Equus caballus with 6 samples.

Results

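Chaperones are the proteins that fold other proteins, and their genes were followed here through 6 regions of horse joint tissue. They were taken as every probe whose gene symbol, read from the array's probe description, was an HSPA, HSPB, HSPD, HSPE, HSPH, HSP90, DNAJA, DNAJB or DNAJC gene, TCP1 or a numbered CCT gene. HSPBP and HSPBAP genes were excluded. The rule used names alone and no measured value. It gave 122 of 43603 probes and 70 of 13600 named genes. These were 11 genes of the HSP70 and HSP110 families, 3 of HSP90, 8 small heat shock proteins, HSPD1, 9 subunits of the cytosolic chaperonin, and 3 DNAJA, 11 DNAJB and 24 DNAJC genes.

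HSP70 proteins bind and release unfolded stretches of polypeptide with the help of J-proteins (the DNAJ genes), which bring them clients and speed up their use of ATP. HSP90 finishes the folding of signalling proteins, the ring-shaped CCT chaperonin folds actin and tubulin, and small heat shock proteins hold unfolded proteins without ATP. In cartilage cells, which secrete large amounts of collagen, the chaperones of the endoplasmic reticulum also serve procollagen folding.

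The tissue came from horses with no treatment or altered allele named in the labels. Fetal hindlimbs at gestational day 40 gave 2 layers of the band of cells where a joint will form, called intermediate and outer interzone, and the transient embryonic cartilage beside them. The adult tissue, at an age of 15 years, was articular cartilage of the stifle, the horse's knee, cut into superficial (the outer 10% of the depth), middle (20 to 30%) and deep (50 to 90%) layers. Cells of each region were collected by laser capture microdissection, their RNA was amplified by a PCR method (SuperAmp), and each region was hybridised to 1 single-colour Agilent array. Every group is therefore 1 array, no difference below has a replicate check, and no test was made. The sources used here do not say how many animals were pooled.

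The arrays differed widely in how much signal they held. Between 16109 and 19445 probes were well above background on the fetal arrays, 11525 on the adult superficial array, and 3661 and 4729 on the middle and deep arrays. The fetal arrays lay on slide 1 and the adult arrays on slide 2, so stage and slide cannot be told apart. Markers bore out the fetal labels: GDF5, an interzone gene, was above background in both interzone layers and not in transient cartilage, and the summed signal of 7 chondrocyte markers was 57.5 in transient cartilage against 2.64 and 5.20 in the intermediate and outer interzone. In the adult arrays COL2A1, the main cartilage collagen, and MATN1 were not well above background in any layer. SOX9 and COMP were so in all 3. Of the 7 chondrocyte markers, 5 passed in superficial, 2 in middle and 4 in deep cartilage. COL11A1 lacked such a signal in middle and deep cartilage, and CYTL1 and HAPLN1 lacked it in middle cartilage. Summed signals of other cell types (skeletal muscle 0.0715 to 1.01, tendon and perichondrium 0.0354 to 1.23, macrophage 0.0226 to 0.231, blood 0.00391 to 0.200, epithelium 0.00334 to 0.247) varied between regions. Those of endothelium (0.00264 to 0.0945) and of the smooth muscle gene TAGLN (0.000474 to 0.205) did too. TAGLN was above background in both interzone layers and the adult superficial layer only. The endothelial gene VWF was above background in the 3 adult layers and in no fetal region. The blood gene HBB was highest in the intermediate interzone (-2.33, against -6.08 and -4.63 in outer interzone and transient cartilage), and the epithelial genes KRT17 and EPCAM were above background in the outer and in no other fetal region. Their part in the differences below was not tested. In tissue samples, fewer cells of a type and less RNA per cell cannot be told apart.

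In the fetal regions and the adult superficial layer a larger share of chaperone genes than of all genes was above background. A gene counted as above background when any of its probes was flagged as well above background by the scanner software. In the intermediate interzone 42 of 70 chaperone genes passed, 60% against 37.9% of all genes. The outer interzone had 46 (65.7% against 43.7%), and transient cartilage 50 (71.4% against 45.8%). In the adult layers 33 passed in the superficial layer (47.1% against 28.9%), 8 in the middle layer (11.4% against 9.74%) and 11 in the deep layer (15.7% against 12.4%). In the middle and deep layers the share was near that of all genes.

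**Figure D1:**
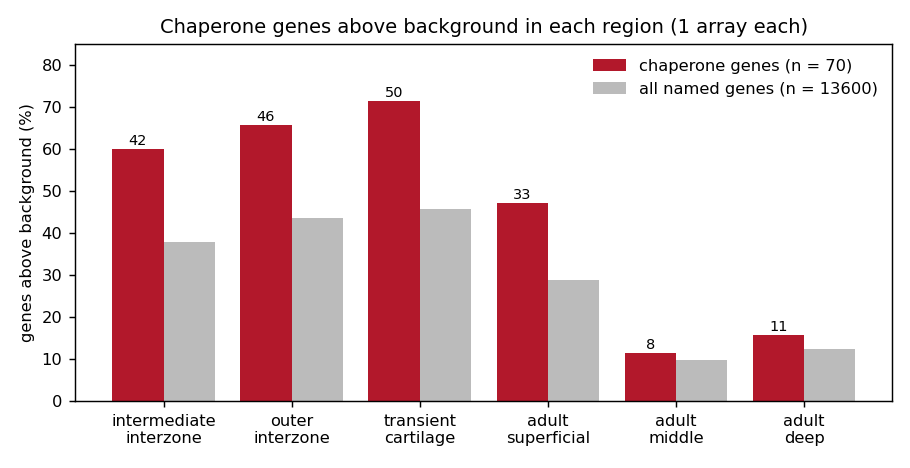
Percentage of genes well above background in each region, 1 array each, for the 70 chaperone genes (red, with their number above the bar) and for all 13600 named genes (grey). The chaperone share exceeds the grey bar in every region, from 71.4% in transient cartilage to 11.4% in the adult middle layer.

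The families were unevenly present. All 3 HSP90 genes were above background in the 3 fetal regions and the superficial layer, 2 in the deep layer and none in the middle layer. Of the 9 CCT genes, 9 were above background in transient cartilage, 7 in each interzone layer, 5 in the superficial layer, 1 in the middle and 2 in the deep layer. The small heat shock proteins split into 4 present genes (HSPB1, HSPB6, HSPB7, HSPB11) and 4 above background on no array (HSPB2, HSPB3, HSPB8, HSPB9). In all, 14 genes were above background on no array, among them HSPA6, a strictly stress-inducible HSP70, and DNAJB13 and DNAJB7, J-proteins best known from testis. Of all 13600 genes, 5166 were above background on none. On all 6 arrays 6 chaperone genes were above background (CCT6A, DNAJC5, HSPA9, HSPB1, HSPB6 and HSPB7), as were 600 of all genes.

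**Figure D2:**
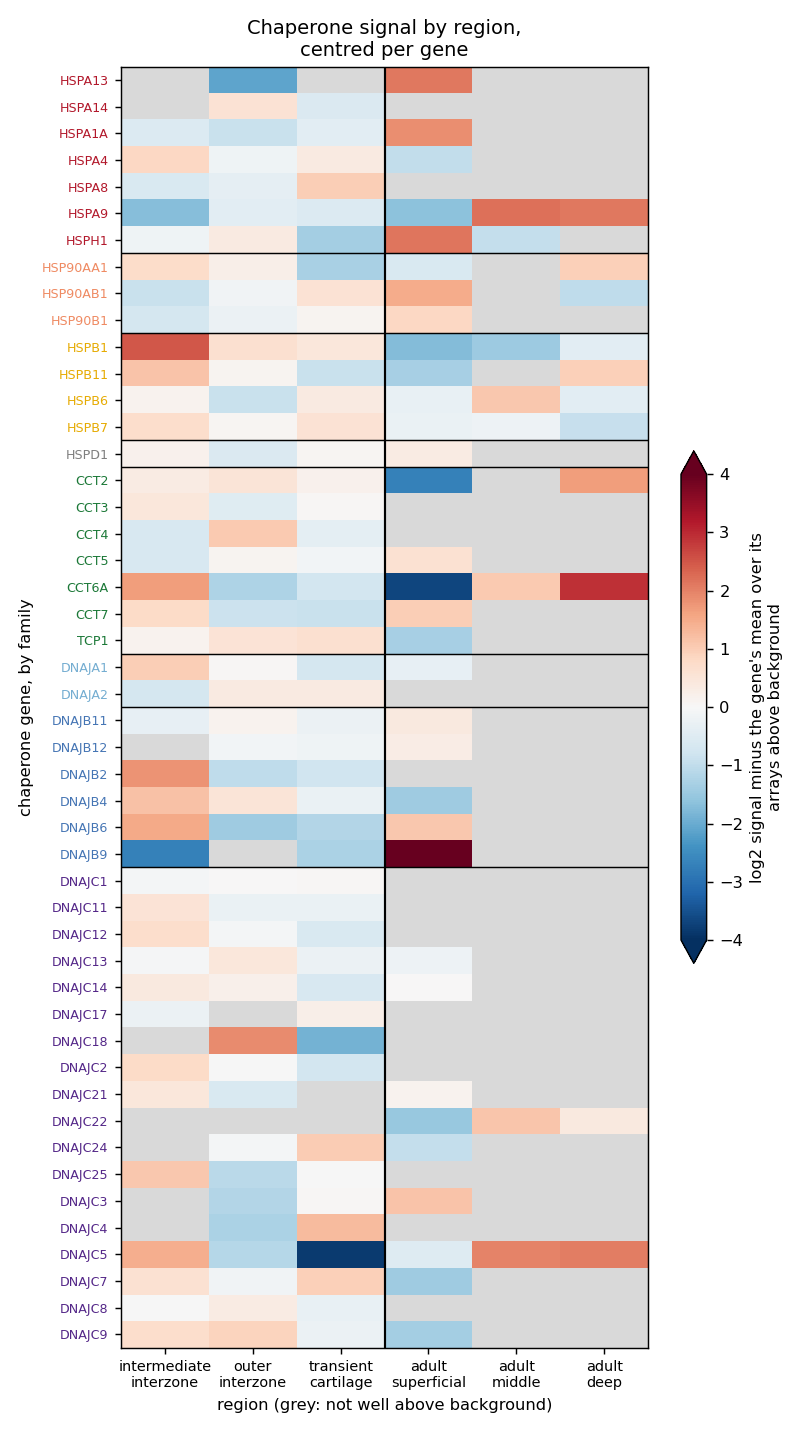
Signal of the chaperone genes above background on at least 2 arrays, by region (columns) and family (label colours and horizontal lines). Colour is the log2 signal minus that gene's own mean over its arrays above background, so colours compare regions within a gene and not genes with each other. Grey cells were not well above background: most of the adult middle and deep columns are grey, and DNAJB9 is darkest red in the adult superficial layer.

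Values below are scaled log2 signals: log2 of the processed signal minus the array's 75th percentile over those 1765 probes that were flagged above background on all 6 arrays. A value of 0 lies at that percentile, and a difference of 1 is 2-fold. Other scalings moved the median of all genes by -0.55 to 0.59 in the fetal comparisons, -1.60 to 1.95 in the adult ones and -0.54 to 2.70 between stages. Errors are the scanner software's spot errors, carried through to the difference. They leave out the spread between animals, dissections and amplifications. Probes differ in brightness, so a value is compared only with the same probe in another region.

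In the intermediate interzone, set against transient cartilage, DNAJC5, DNAJB6, DNAJB2 and CCT6A were the most raised of the measured chaperones and HSPA8 and HSP90AB1 the most lowered. Of 39 chaperone genes with a signal on both arrays, 15 differed upwards by 2-fold or more, beside 32.5% of all 4299 measured genes, and 5 downwards, beside 17.7% of all genes. The median difference of the chaperones was 0.28 against 0.36 over all genes. These counts and the median lie near those of all genes. The split depended on scaling, with 9 higher and 9 lower under a 50th percentile and 15 higher and 1 lower after normexp background correction.

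In the outer interzone against transient cartilage, fewer chaperones differed. Of 43 measured, 7 were at least 2-fold higher (25% of all 4788 genes) and 7 lower (20.1% of all genes), with medians of 0.04 for the chaperones and 0.08 for all genes. With the authors' deposited series table in place of the scaled signal the split was 14 higher and 1 lower. Between the interzone layers themselves, 11 of 38 were higher by 2-fold or more in the intermediate layer (25.7% of all 4263 genes) and 3 lower (17.6%), with a median of 0.64 against 0.22. That split was 17 and 0 after normexp correction and 7 and 5 both under the 50th percentile and in the deposited table.

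**Figure D3:**
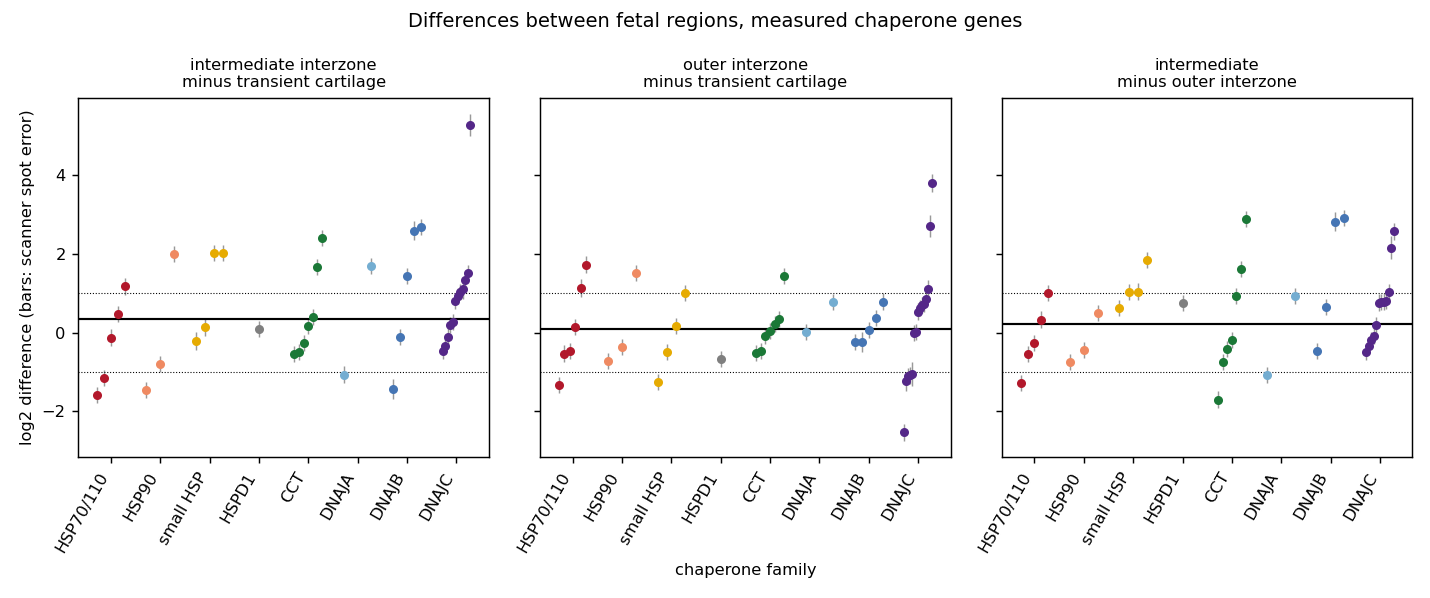
Log2 differences between fetal regions for every measured chaperone gene, by family; each point is 1 gene, bars are scanner spot errors, the solid line is the median of all measured genes and dotted lines mark 2-fold. DNAJC5 stands highest in the left panel at 5.28, and CCT6A, DNAJB6, DNAJB2, HSPB1, HSPB11 and, just, HSP90AA1 lie above 2 there.

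Among the HSP70 genes, HSPA8, the constitutive cytosolic HSP70, had signals of -4.18 and -3.93 in the intermediate and outer interzone and -2.59 in transient cartilage, and was not well above background in the 3 adult layers. It was thus highest in transient cartilage. It was 3.02-fold lower in the intermediate interzone than in transient cartilage (difference -1.59 ± 0.20, spot error) and 2.53-fold lower in the outer interzone (-1.34 ± 0.20), and both kept their sign under all 5 other scalings.

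HSPH1, the HSP110 that acts as a nucleotide exchange factor for HSP70, ran the other way. Its signals were -5.09, -4.54 and -6.27 in the intermediate interzone, outer interzone and transient cartilage, -2.75 in the adult superficial layer and -5.87 in the middle layer, with no signal well above background in the deep layer. It was 2.27-fold higher in the intermediate (1.18 ± 0.21) and 3.32-fold higher in the outer interzone (1.73 ± 0.21) than in transient cartilage. Its superficial value was the highest of these, though against the middle layer it turned to -0.14 after quantile normalization.

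HSPA1A, the classic heat-inducible HSP70, was nearly level across the fetal regions at -5.63, -5.96 and -5.49, and stood at -3.23 in the adult superficial layer. Its near-identical copy HSPA1B has no probe under that name, so the signal may hold both. HSPA4, another HSP110 relative, measured -3.94, -4.95 and -4.42 in the fetal regions and -5.77 in the superficial layer. Its other probe gave the opposite direction for the outer interzone against transient cartilage (0.35 against -0.53). HSPA14, a ribosome-associated HSP70, was measured in outer interzone (-5.95) and transient cartilage (-7.08) and not in the intermediate interzone.

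HSPA12B and HSPA13 were found in single fetal regions. HSPA12B, a distant HSP70 relative known from endothelium, was above background only in the intermediate interzone, at -2.86, and was there at least 69.4-fold higher than in transient cartilage and at least 67.4-fold higher than in the outer interzone. None of 5 endothelial markers (PECAM1, CDH5, KDR, VWF, TEK) was above background in a fetal region. A bound of this kind sets the measured signal against the lowest signal called well above background on the dim array, or the probe's own signal there where that is higher. HSPA13, a microsomal HSP70, was above background in the outer interzone (-6.25) and the adult superficial layer (-2.01) only.

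HSPA9, the HSP70 of the mitochondrial matrix (mortalin), has 7 probes, and they did not agree. Of these, 5 start at bases 1462 to 1466 of the transcript, each shifted by 1 base from the next and sharing at least 56 bases with the first. The other probes start at bases 2293 and 2353. The first 30 bases of the 60-base probes are shown because the 2 stretches of transcript give opposite answers. They are in lower case, and no base is marked.
HSPA9 base 1462: ctaattaataggaacaccactattccaacc
HSPA9 base 2293: atcatttagtgattgataattccagcagta
HSPA9 base 2353: cgtttttcagctgcatgtaaaagggacggg

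Over the 5 upstream probes the mean signal was -2.51 ± 0.05 (SD over probes) for intermediate interzone, -2.97 ± 0.06 for outer interzone and -3.28 ± 0.04 for transient cartilage. In adult cartilage it was -0.38 ± 0.10, -2.98 ± 0.17 and -4.92 ± 0.14 from superficial to deep. The 5 probes thus agreed closely with each other and fell from the cartilage surface downwards. The 2 downstream probes gave -2.82 and -2.52 for intermediate interzone, -1.52 and -2.06 for outer interzone and -1.66 and -1.72 for transient cartilage. They gave -2.73 and -3.90 in the superficial layer, 1.12 and 0.93 in the middle and 1.01 and 0.33 in the deep layer.

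The 2 sets therefore disagreed in direction in 5 of the 7 comparisons by their means. Superficial against deep cartilage was 23.2-fold higher by the upstream probes (4.54 ± 0.20, SD over 5 probes) and 15.9-fold lower by the downstream probes (-3.99 ± 0.35, SD over 2 probes). The intermediate interzone against transient cartilage was 0.77 ± 0.04 upstream and -0.98 ± 0.24 downstream. The probe at base 2293 is the brightest on average and is the one counted for HSPA9 in all summaries. Mean signals over all of its probes turn 4 HSPA9 differences, so values for this gene are given by probe.

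**Figure D4:**
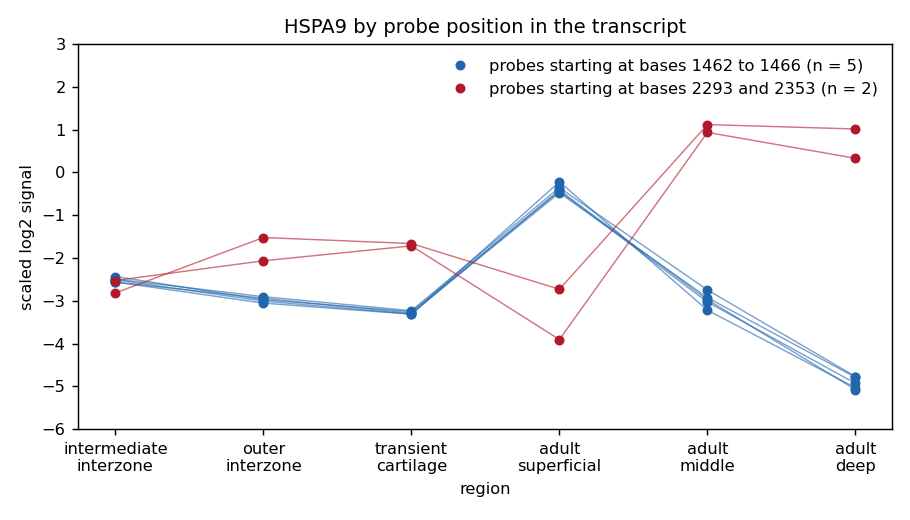
Scaled log2 signal of the 7 HSPA9 probes in each region, 1 line per probe, coloured by where the probe starts in the transcript. The upstream probes (blue) peak in the adult superficial layer at about -0.38, where the downstream probes (red) lie at -2.73 and -3.90.

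The HSP90 genes did not move together. HSP90AA1, the stress-responsive cytosolic HSP90, measured 0.69 and 0.19 in the intermediate and outer interzone, -1.32 in transient cartilage, then -0.64 in the adult superficial and 0.92 in the deep layer. It was 4.03-fold higher in the intermediate interzone (2.01 ± 0.20) and 2.84-fold higher in the outer interzone (1.51 ± 0.20) than in transient cartilage.

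HSP90AB1, the constitutive cytosolic HSP90, had the reverse order at -0.05, 0.70 and 1.42 in the same fetal regions. It was 2.76-fold lower in the intermediate interzone than in transient cartilage (-1.47 ± 0.20) and 1.64-fold lower in the outer interzone (-0.72 ± 0.20). All 6 of its probes gave the same direction in the 3 fetal comparisons, from -1.25 to -1.47 in the first. HSP90B1, the HSP90 of the endoplasmic reticulum, was ordered like HSP90AB1 at -0.36, 0.08 and 0.44, but its small difference between outer interzone and transient cartilage (-0.36) turned to 0.02 in the deposited table. The opposite orders of HSP90AA1 and HSP90AB1 kept their signs under the 5 other scalings in both comparisons with transient cartilage.

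In adult cartilage HSP90AB1 was highest in the superficial layer at 2.32, stood at -0.17 in the deep layer, and was 5.62-fold higher at the surface than in the deep layer (2.49 ± 0.20). HSP90AA1 was 2.96-fold lower at the surface than in the deep layer (-1.57 ± 0.20), though relative to the median of all genes this ran from -0.74 to 0.87 over the scalings. HSP90B1 was above background in the superficial layer alone, at 1.15. The superficial value of HSP90AB1 rests on 2 kinds of probe, of which 1 stretch each is shown since they differ there.
HSP90AB1 base 1809: aaatcttggataagaaggttgagaaggtga
HSP90AB1 base 2440: ttcccacatttgacatcaggtttggatgtt

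Against the fetal mean, the probe at base 1809 was 1.63 higher in the superficial layer, on the log2 scale. Of the 5 probes at bases 2440 to 2444, which overlap by at least 56 bases, those at 2440, 2442, 2443 and 2444 gave -0.31, -0.22, -0.66 and -0.06, and the one at 2441 gave 2.17. The probe at 2441 lay close to its neighbours at 2440 and 2442 in the fetal regions (-6.12 against -6.16 and -6.18 in the intermediate interzone) and far above them in the superficial layer, at -3.33 against -5.76 and -5.73.

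**Figure D5:**
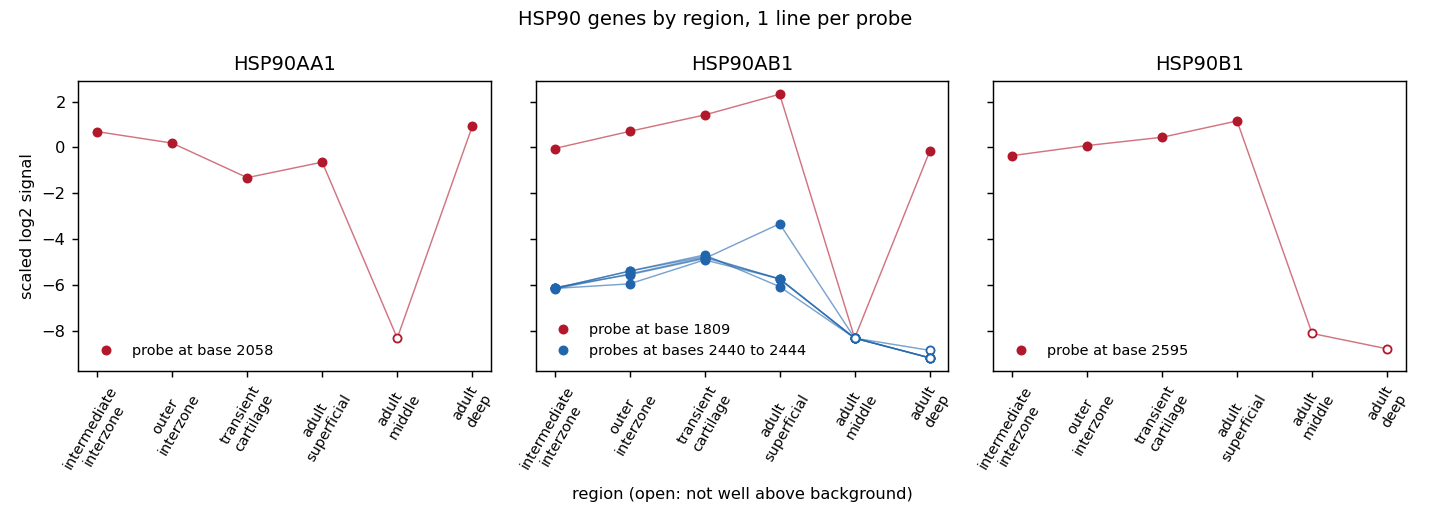
Scaled log2 signal of the HSP90 genes in each region, 1 line per probe; open circles were not well above background. HSP90AA1 falls from intermediate interzone to transient cartilage (0.69 to -1.32), while HSP90AB1 and, by less, HSP90B1 rise; for HSP90B1 the step from outer interzone to transient cartilage turns in the deposited table.

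The subunits of the cytosolic chaperonin, which works as a ring of different proteins, differed among themselves. TCP1 (the first subunit) was nearly level at -2.33, -1.91 and -1.83 in the intermediate interzone, outer interzone and transient cartilage. CCT5 was nearly level too, at -1.17, -0.41 and -0.63. CCT2 measured 0.13, 0.31 and -0.03 by the probe counted for it. Its other probe gave differences of 0.74 and 1.38 for the intermediate and outer interzone over transient cartilage. CCT3 measured -3.22, -4.15 and -3.62, but its other probe turned the sign in 2 of the 3 fetal comparisons.

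CCT6A measured -1.17 and -4.05 in the intermediate and outer interzone and -3.58 in transient cartilage. It was 5.32-fold higher in the intermediate interzone than in transient cartilage (2.41 ± 0.20) and 7.39-fold higher than in the outer interzone (2.88 ± 0.20). CCT7 had the same shape at -1.17, -2.80 and -2.83, and was 3.18-fold higher than in transient cartilage (1.67 ± 0.20). CCT4 was instead highest in the outer interzone, at -4.47, -2.77 and -4.21, and 2.72-fold higher there than in transient cartilage (1.45 ± 0.20).

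CCT8 and CCT6B were above background in transient cartilage only. CCT8 measured -3.96 there and was below that by at least 16.7-fold in the intermediate and 31.2-fold in the outer interzone. Over the scalings these log2 bounds ran from -4.61 to -0.73 and from -5.20 to -2.40. CCT6B, another form of the CCT6 subunit best known from testis, measured -5.90 in transient cartilage. The CCT6A and CCT6B probes are shown because their genes are alike: the best alignment without gaps over the probes' ends pairs 36 bases with 8 mismatches (77.8% identity). Of these, 30 bases are printed, with the 6 mismatches in them in capitals.
CCT6A probe: ggCAtAtgggataaCtattgtgtAaaGaaa
CCT6B probe: ggAGtTtgggataaTtattgtgtGaaAaaa

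In the adult, CCT6A was measured in all 3 layers, at -6.50 in the superficial, -1.78 in the middle and 0.09 in the deep layer. The superficial layer was 96.4-fold lower than the deep layer (-6.59 ± 0.22), and 3.63 to 5.76 lower on the log2 scale relative to the median of all genes over the scalings. CCT2 also stood at -2.91 in the superficial and 1.48 in the deep layer, 21.0-fold lower at the surface (-4.40 ± 0.20). Only the CCT2 probe at base 1704 was above background in adult cartilage, and the probe at base 1770 was not, so the stretches are given.
CCT2 base 1704: tgtggctgttatatccttaagtttggacat
CCT2 base 1770: tttgctgttttattttccatgaaattcggt

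Other CCT subunits had the reverse adult pattern. CCT5 (0.08) and CCT7 (-0.94) were above background in the superficial layer alone, exceeding the deep layer at least 123-fold and 60.5-fold. TCP1, at -3.79 in the superficial layer, was at least 8.42-fold higher there, a bound that was lost under 1 or more of the scalings. CCT3, CCT4, CCT6B and CCT8 were above background on no adult array. By these probes the subunits of the complex did not share 1 adult pattern.

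HSPD1, the chaperonin of the mitochondrial matrix, showed little change among the fetal regions, at -3.56, -4.33 and -3.65, and stood at -3.41 in the superficial layer. Its 2 probes gave opposite signs for the intermediate interzone against transient cartilage (0.08 and -0.91). HSPE1, its partner, has no named probe here, and neither has HSPA5, the main HSP70 of the endoplasmic reticulum.

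Among the small heat shock proteins, HSPB1 (also called HSP27), which caps actin filaments, measured -1.41 and -3.26 in the intermediate and outer interzone and -3.43 in transient cartilage. In adult cartilage, from superficial to deep, it measured -5.64, -5.34 and -4.31. The intermediate interzone was 4.07-fold above transient cartilage (2.03 ± 0.20), and every adult value lay below every fetal value. HSPB11, a small protein of the intraflagellar transport machinery, measured 0.81, -0.24 and -1.23 in the fetal regions, and its 3 probes gave 2.06, 2.04 and 1.87 for the intermediate interzone over transient cartilage.

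HSPB6 and HSPB7, both known from muscle, were measured on all 6 arrays. HSPB6 ran from -6.56 in the outer interzone to -4.59 in the middle layer. In transient cartilage it stood at -5.31, more than 2-fold above the outer interzone. HSPB7 ran from -6.06 in the deep layer to -4.42 in the intermediate interzone. Skeletal muscle markers on the same arrays had summed signals of 1.01, 0.467 and 0.583 in the fetal regions and 0.368, 0.133 and 0.0715 in the adult layers from superficial to deep. Of 8 muscle markers 3 to 6 were above background on each array, with TNNC1 on none. CRYAA and CRYAB, lens small heat shock proteins outside the rule, were above background in few regions: CRYAB in the outer interzone exceeded transient cartilage at least 14.3-fold.

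Among the fetal regions the widest measured difference was that of a J-protein. DNAJC5, the cysteine string protein of secretory vesicles, measured -2.91 and -5.49 in the intermediate and outer interzone, -8.19 in transient cartilage, and -4.85, -2.36 and -2.29 in the adult layers from superficial to deep. Its fetal values differed by more than 2-fold from region to region. The intermediate interzone was 38.9-fold higher than transient cartilage (5.28 ± 0.28), and the outer interzone 6.53-fold (2.71 ± 0.28). Over the scalings the first ran from 2.98 to 5.40. Both rest on 1 probe, whose transient cartilage value lay near the lowest signal called well above background on that array (-8.98).

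DNAJB6, which suppresses protein aggregation, measured -1.67, -4.59 and -4.35 in the fetal regions and was 6.41-fold higher in the intermediate interzone than in transient cartilage (2.68 ± 0.20). DNAJB2, a J-protein that passes clients to the proteasome, measured -4.76, -7.59 and -7.36 and was 6.06-fold higher (2.60 ± 0.23). Both had the shape of CCT6A and CCT7: raised in the intermediate layer, with the outer layer near transient cartilage. DNAJB4 (1.44 ± 0.21) and DNAJC2 (1.51 ± 0.21), a ribosome-bound J-protein, were higher in the same comparison.

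DNAJA1, a main cytosolic partner of HSP70, measured 0.12, -0.81 and -1.58 by the probe at base 1267, a difference of 1.70 ± 0.20 between intermediate interzone and transient cartilage. Its probe at base 450 gave -0.02. DNAJA2 was 2.10-fold lower by the probe counted (-1.07 ± 0.21) and differed by -3.07 at base 2903, while its remaining probe was not above background in the intermediate interzone. DNAJB1, the heat-inducible partner of HSP70, was above background only in the intermediate interzone (-6.06), at least 7.57-fold above transient cartilage.

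Some J-proteins were low in the intermediate interzone. DNAJC24, which takes part in making diphthamide, measured -2.89 in the outer interzone, -1.77 in transient cartilage and no signal well above background in the intermediate interzone, a bound of at least 76.0-fold below transient cartilage. DNAJC4 measured -7.17 and -4.63 in the same regions and was likewise not above background in the intermediate interzone. DNAJC18 was 14.0-fold higher in the outer interzone than in transient cartilage (3.81 ± 0.22, with its other probe in the same direction). DNAJC17, a J-protein of the nucleus, was not well above background in the outer interzone, at least 21.0-fold lower there than in transient cartilage. DNAJC21, a ribosome biogenesis factor, was at -2.99 and -4.03 in the interzone layers and not above background in transient cartilage, at least 63.5-fold and 30.8-fold lower there.

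DNAJB9, a J-protein of the endoplasmic reticulum, measured -7.12 in the intermediate interzone, -5.69 in transient cartilage and -0.41 in the adult superficial layer. The fetal difference was -1.44 ± 0.27, and it turned to 0.64 after normexp correction. DNAJB11, its neighbour in the same compartment, was level in the fetal regions at -1.43, -0.95 and -1.33 and stood at -0.70 in the superficial layer. DNAJC3, an inhibitor of the kinase PERK, measured -7.40, -6.16 and -5.08 in outer interzone, transient cartilage and the superficial layer.

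For most chaperones with a superficial signal, the middle and deep arrays had none well above background, as for all genes. Of 70 genes, 25 were above background by their reported probe in the superficial and not the middle layer, and 0 the other way, and 22 in the superficial and not the deep layer, with 0 the other way. Over all genes the same counts were 2875 against 294 and 2616 against 396. By any probe, 33 chaperones and 3932 of all genes were above background in the superficial layer. The superficial-only counts were thus a similar share of both. Superficial-only signals were led by HSP90B1, which exceeded the deep layer at least 259-fold and the middle layer at least 143-fold. The same bounds were 123-fold and 68.2-fold for CCT5, 87.8-fold and 48.6-fold for DNAJB9, and 71.9-fold and 39.8-fold for DNAJB11. HSP90AB1 exceeded the middle layer at least 322-fold. These bounds stayed above 0 on the log2 scale under every scaling, the lowest being 2.68 for DNAJB11 against the middle layer.

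Few chaperones were measured in both of 2 adult layers. Between the superficial and deep layers 11 were, of which 1 (HSP90AB1) was at least 2-fold higher at the surface, beside 17.7% of 1244 genes, and 8 were lower, beside 45% of genes. Their median was -1.89 against -0.83. Between the superficial and middle layers 8 were measured, with HSPH1 at least 2-fold higher (3.12 ± 0.33, 15.5% of 986 genes) and 5 lower (60.5% of genes), with medians of -1.92 and -1.52. HSPH1 fell to -0.14 after quantile normalization, and stood 2.48 to 4.64 above the median of all genes over the scalings. In the authors' deposited table the splits were 3 higher and 5 lower against the deep layer and 3 and 2 against the middle layer.

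For middle against deep cartilage 7 were measured. The middle layer was higher by 2-fold or more in 1 (HSPB6, 1.48 ± 0.28; 40% of 803 genes) and lower in 2 (CCT6A at -1.86 ± 0.20 and HSPB1 at -1.03 ± 0.28; 12.6% of genes). HSPB1 turned to 0.18 after normexp correction. The medians were 0.10 and 0.80. After quantile normalization the split was 1 higher and 0 lower, and with either the 75th percentile over all probes or the authors' deposited values 0 and 2. CCT2, HSP90AA1, HSPB11 and HSP90AB1 were above background in the deep and not the middle layer, at least 180-fold, 122-fold, 97.6-fold and 57.3-fold higher. In the deep layer HSPB11 stood at 0.60.

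Between the stages, 6 chaperones were measured on all arrays. DNAJC5 was 2.36 ± 0.13 and HSPA9, by its probe at base 2293, 1.80 ± 0.12 higher in the adult mean (at least 2-fold in 38.6% of 570 genes), while the upstream HSPA9 probes gave 0.16 ± 0.06 (SD over 5 probes). HSPB1 was 5.27-fold lower (-2.40 ± 0.13; 17.2% of genes). HSPB7 (-0.92), HSPB6 (0.26) and CCT6A (0.20) differed by less than 2-fold. HSPB1 and HSPB7 lay below every fetal value on every adult array, as did 10.5% of the genes measured, and 0 of the 6 lay above, beside 23.3%. Under the 75th percentile over all probes HSPB1 turned to 0.31, while relative to the median of all genes it stayed between -2.93 and -1.97. HSPB7 turned to 1.78 under that scaling, 1.84 after quantile normalization and 0.29 after normexp correction, and stayed between -1.46 and -0.59 relative to all genes. With the same percentile over all probes and with quantile normalization the split was 5 higher and 0 lower, and in the authors' deposited values 2 and 2. With the superficial array as the only adult array, HSPA9 turned to -0.73.

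A larger set was above background in the fetus only. The 11 genes CCT3, CCT4, DNAJA2, DNAJB2, DNAJC1, DNAJC2, DNAJC8, DNAJC11, DNAJC12, DNAJC25 and HSPA8 were above background in all 3 fetal regions and in no adult layer, as were 1323 of 13600 genes. DNAJC8, a splicing-associated J-protein, measured -0.81, -0.46 and -1.09 in the fetal regions and was at least 77.0-fold lower in the adult mean. HSPA8 was at least 11.2-fold lower, a log2 bound of -3.48 that ran from -4.03 to -0.29 over the scalings. A further 15 genes were above background in the 3 fetal regions and the superficial layer alone, as were 1254 of all genes. DNAJC22 was above background in all 3 adult layers (-7.55, -4.92 and -5.65) and in no fetal region, a pattern shared by 33 of all genes.

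Because the middle and deep layers held so few signals, the superficial array was also set alone against the mean of the 3 fetal arrays, a comparison added after seeing the data. Of 26 chaperones measured, 6 were at least 2-fold higher (27.4% of 2347 genes) and 9 lower (29.7%). The higher ones were HSPH1 (5.84-fold, 2.54 ± 0.17), HSPA1A (5.52-fold, 2.46 ± 0.17), HSP90AB1 (1.63 by its probe at base 1809), DNAJB6 (2.69-fold), CCT7 (1.32 ± 0.17) and HSP90B1 (2.14-fold). These 6 kept their sign under the 5 other scalings, also relative to the median of all genes. The lower ones included CCT6A (11.9-fold), CCT2 (8.28-fold), HSPB1 (7.65-fold), DNAJB4 (3.72-fold), DNAJC7 (3.70-fold), DNAJC9 (3.50-fold) and TCP1 (3.41-fold), of which the last 4 changed sign under 1 or more scalings but not relative to all genes. All of this again compares slide 2 with slide 1.

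A 4-fold threshold left fewer genes. Against transient cartilage, 7 chaperones were higher by 4-fold or more in the intermediate interzone (14.9% of all genes) and 0 lower (6.61%). In the outer interzone 2 were higher (10.5%) and 1 lower (8.29%), and between the interzone layers 5 were higher in the intermediate layer (10.9%) and 0 lower (7.25%). In adult cartilage the superficial layer had 1 higher (9.43%) and 4 lower (37.3%) than the middle layer, and 1 higher (11.1%) and 5 lower (21.1%) than the deep layer. Middle against deep cartilage had 0 higher (13.1%) and 0 lower (7.72%). The adult mean had 1 higher (14.6%) and 1 lower (9.47%) than the fetal mean, and the superficial array alone 2 higher (13.4%) and 3 lower (16%).

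Partner genes outside the rule were counted from lists. Of 24 co-chaperones of HSP70 and HSP90 on the array, 17 were measured between the intermediate interzone and transient cartilage, 4 at least 2-fold higher, beside 32.5% of all genes, and 6 lower, beside 17.7% (median -0.11). SIL1, the exchange factor of the endoplasmic reticulum, was 2.61 and AHSA2, related to the HSP90 activator AHSA1, 2.18 higher, while CDC37L1 was -2.60 and SUGT1, an HSP90 adaptor, -2.37. In the outer interzone 1 of 18 was higher (BAG3, 1.31), beside 25% of all genes, and 7 lower, beside 20.1%. Of 10 prefoldin and tubulin-folding partners of CCT, 3 of 9 were higher in the intermediate interzone (TBCE, 1.93; TBCB, 1.42; and TBCD, 1.21) and 0 lower; in the outer interzone 0 were higher and 2 of 9 lower. The 3 of 9 and 2 of 9 are near the shares of all genes (32.5% and 20.1%). The 0 lower and 0 higher stand beside 17.7% and 25% of all genes.

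Among folding enzymes and lectins of the endoplasmic reticulum, some were lower in the interzone and none was 2-fold higher. Of 19 measured, the intermediate interzone exceeded transient cartilage 2-fold or more in 0, beside 32.5% of all genes, and was lower in 7, beside 17.7%. The median was -0.76 against 0.36 over all genes. In the outer interzone 0 of 20 were higher, beside 25% of all genes, and 8 lower, beside 20.1%, with a median of -0.81 against 0.08. The remaining measured members were within 2-fold. PDIA4 and SEC61A1 were above background in transient cartilage and not in the intermediate interzone. SEC61A1 was not above background in the outer interzone either. Chondrocyte markers were lower in the same comparisons, with medians of -4.46 and -3.42 over 6 measured, and their part in these counts was not tested. FKBP14, a collagen prolyl isomerase, was -5.04 and -4.86 in these comparisons, and SDF2L1 -3.76 and -0.52. Under the 5 other scalings none was higher, and 5 to 10 were lower in the first and 5 to 11 in the second. Of the chaperones of that compartment in the rule, HSP90B1 was -0.80, DNAJB9 -1.44 and DNAJB11 -0.10 in the first comparison. DNAJB9 turned to 0.64 after normexp correction. Other J-proteins there were mixed. DNAJC25 was higher in the intermediate interzone (-6.10) than in transient cartilage (-7.21), and DNAJC1 was nearly level (-5.31 and -5.20). DNAJC3 was above background in transient cartilage and not in the intermediate interzone.

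Stress-response genes were mixed. HSF2, a heat shock transcription factor and the only one of 3 HSF-list genes on the array that was measured, was -1.26 in the intermediate and 2.39 in the outer interzone against transient cartilage. Of 13 immediate-early and stress genes 4 were measured in the first comparison, with FOS (3.19) and JUN (2.65) the most raised and MYC (-3.77) the most lowered. Their differences in the outer interzone were 2.84, 2.53 and -3.23. In transient cartilage FOS (-8.61) lay near the lowest signal called well above background on that array (-8.98). HMOX1 (-4.25) and CDKN1A (-5.08) were above background in the intermediate interzone and in neither other fetal region. FOSB (-8.63) was so in transient cartilage alone of the fetal regions. Of 10 unfolded protein response genes 3 were measured in the first, with DDIT3, which encodes the factor CHOP, at 1.32. HERPUD1 was at least 23.6-fold higher and XBP1 at least 7.85-fold lower. Of 8 mitochondrial import genes 2 were measured and neither differed by 2-fold. The others with a signal split both ways. TIMM23 (at least 19.9-fold lower), TIMM44 and TOMM20 passed background in transient cartilage alone of these 2 regions. GRPEL1 (-6.80) and CLPX (-5.84) did so in the intermediate interzone alone.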

How the data were processed

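Gene expression was measured on 6 single-colour Agilent arrays, 1 per region. The deposited intensity values are processed signals, which per the file headers were background-subtracted and detrended with Agilent's Feature Extraction software, version 10.7.3.1. The authors' deposited series table holds ratio values. Set against the scanner files, they equal the processed signal divided by the array's median.

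Here 1417 control spots and outlier spots were left out, and spots of a probe were averaged. Log2 processed signal was scaled to each array's 75th percentile over 1765 probes. A difference was computed where the probe was well above background on every array compared, and a bound where it was on 1 side only. For a gene with several probes, the one with the highest mean was counted. Genes were named from the array descriptions through RefSeq names, without coordinates. Probe sequences come from the scanner files.

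With 1 array per group no test was possible. Named genes were the 5 largest differences per direction whose probes went one way, up to 3 bounds, a fixed set of main chaperones and up to 2 genes per partner list; other genes named were chosen after their values were seen. Members and lists were chosen with earlier results of these data known. Alternatives were 5 scalings, mean over probes, a stricter filter on dim probes, a 4-fold threshold and left-out arrays. Scripts were tested on simulated data (Python 3.11.15, R 4.3.3, limma 3.58.1 for normexp and quantile normalization with an offset of 50).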

Additional observations from a re-analysis of the deposited data

How the results depend on the processing

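No paired analysis was possible because each region has 1 array. Of the counts and medians that answer a comparison, 129 values under an alternative stayed near the main value and 59 moved; the cause was not tested. Counts are given as higher and lower. Under the 50th percentile they were 9 and 9 for intermediate interzone against transient cartilage and 7 and 5 for intermediate against outer interzone. After normexp correction they were 15 and 1, and 17 and 0, for these comparisons, 3 and 3 for outer interzone against transient cartilage, 0 and 7 for superficial against middle, and 0 and 1 for middle against deep. In the deposited table they were 14 and 1 for outer interzone against transient cartilage, 7 and 5 between interzone layers, 3 and 2 for superficial against middle, 3 and 5 for superficial against deep, 0 and 2 for middle against deep, and 2 and 2 between stages. Quantile normalization gave 0 and 7 for superficial against middle, 1 and 0 for middle against deep and 5 and 0 between stages, where the chaperone median minus that of all genes was -0.71. The 75th percentile over all probes gave 0 and 2 for middle against deep and 5 and 0 between stages. A 4-fold threshold gave 7 and 0, 2 and 1, and 5 and 0 in the 3 fetal comparisons, 5 lower for superficial against deep, 0 and 0 for middle against deep and 1 higher between stages. Averaging probes gave 2 higher for superficial against deep, 2 for middle against deep and 1 between stages, and moved the relative median for superficial against middle to 0.70. The stricter filter gave 0 higher for superficial against middle with a relative median of -1.68, 0 and 1 for middle against deep, and 1 and 0 between stages with 0.47.

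Leaving out 1 array between stages gave 2 to 3 higher and 1 to 2 lower. The lower count was 2 without the outer interzone, superficial, middle or deep array, and the relative median ran from -0.72 without the outer interzone to 0.54 without the superficial layer. The superficial array alone, added after seeing the data, gave 6 and 9 and turned HSPA9 to -0.73. Among named genes with a difference of at least 2-fold, leaving aside the superficial layer against the fetal mean, those that turned were DNAJB9 (0.64, intermediate interzone against transient cartilage), DNAJA2 (0.074, intermediate against outer interzone) and HSPB1 (0.18, middle against deep) after normexp correction, and HSPH1 (-0.14) after quantile normalization and HSPB6 (0.59) in the deposited table, both superficial against middle. HSPB1 turned to 0.31 between stages with the 75th percentile over all probes. Averaged probes turned HSPA9 to 0.27, 0.081, 0.61 and 2.10 in intermediate interzone against transient cartilage, intermediate against outer interzone, superficial against middle and superficial against deep. Smaller differences turned too, such as HSPB7 between stages and CCT2, CCT3 and CCT4 in intermediate interzone against transient cartilage. A heat shock element search in promoters was not run, since promoter sequence was not used here. Low signal over background limits the middle and deep layers most.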
